A study of Homo sapiens with 12 samples.

Results

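The genes described here are the replication-dependent histone cluster genes and their close relatives, as read on microarrays of 2 hepatocellular carcinoma lines treated with DAAD2. They were chosen by name: a probe set, the group of short probes that reads 1 transcript, was taken if its single annotated gene symbol began with H1-, H2AC, H2BC, H3C or H4C, or with the older HIST names. This gave 58 of the 54613 probe sets tested, for 50 genes. Hep3B, a liver cancer line that the sample labels call DAAD-2-sensitive, was treated with 2 µM DAAD2, and Hep3B cells with 0.1% DMSO served as its vehicle control. SNU449, a liver cancer line labelled resistant, was treated with 20 µM DAAD2 and had its own 0.1% DMSO control, so the doses of the lines differ. DAAD2 is a dehydroabietylamine joined to N-acetyl-L-cysteine, treatment lasted 72 h in all 4 groups, and each group had 3 arrays. Each line is a single established cell line, and the labels number the 3 arrays of a group as replicates. They do not say that these came from separate cultures, so the p-values below measure the spread between these arrays.

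Replication-dependent histones are the core histones H2A, H2B, H3 and H4 and most H1 linker histones, around which and with which newly copied DNA is packed. Their genes lie in clusters, have no introns and are transcribed mainly in S phase, when NPAT, activated by cyclin E with CDK2, works at the histone locus body. Their mRNAs end in a stem-loop held by SLBP instead of a poly(A) tail and are degraded when DNA synthesis stops. A standard array labelling reaction primes on poly(A) tails, so these mRNAs are generally poorly read on such arrays, apart from a few histone genes known to make polyadenylated transcripts as well. The primer used in this study was not stated.

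Of the 58 probe sets, 47 read genes on chromosome 6, where the main human clusters lie, and 3 read genes on chromosome 1. The gene names also took in the linker histone H1-10 on chromosome 3, which is not tied to replication, the H2B-like gene H2BC12L on chromosome 21, the germ cell histones H1-6, H1-7, H1-8 and H2BC1, 3 pseudogenes and the antisense RNA H1-10-AS1. By class, 14 probe sets read H1 genes, 11 read H2A, 15 read H2B, 8 read H3 and 10 read H4. A total of 43 genes had 1 probe set and 7 had more. Family members are near-identical in their coding sequence, and 14 of the 58 probe sets have names ending in _x_at or _s_at, Affymetrix's mark for probes that can bind several transcripts. Which family member supplied the signal is uncertain for them.

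Histone promoters carry short shared elements, and the stretches before the start sites of 4 genes on which the results turn are shown so that these can be seen. H2AC6, H2BC12 and H2BC21 encode core histones of the H2A and H2B classes, and H4C11 encodes histone H4. Each is the 250 bases before the annotated start, read 5′ to 3′ on the gene's strand, from RefSeq (GRCh38.p14). Capitals mark the octamer ATTTGCAT, the CCAAT box and the TATA element TATAAA, each searched on both strands. The 3 motifs do not overlap one another here, but TATAAA and its reverse complement overlap at the first TATA match of H2BC12.
H2AC6: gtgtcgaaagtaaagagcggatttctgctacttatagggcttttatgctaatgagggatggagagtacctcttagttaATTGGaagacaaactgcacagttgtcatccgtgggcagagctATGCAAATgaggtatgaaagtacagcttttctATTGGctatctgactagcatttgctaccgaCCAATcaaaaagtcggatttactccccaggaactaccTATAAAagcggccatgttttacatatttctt
H2BC12: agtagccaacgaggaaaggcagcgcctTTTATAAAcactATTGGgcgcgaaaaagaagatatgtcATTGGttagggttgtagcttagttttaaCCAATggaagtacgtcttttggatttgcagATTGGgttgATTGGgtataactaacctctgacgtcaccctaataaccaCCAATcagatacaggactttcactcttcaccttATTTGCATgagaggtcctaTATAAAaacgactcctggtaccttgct
H2BC21: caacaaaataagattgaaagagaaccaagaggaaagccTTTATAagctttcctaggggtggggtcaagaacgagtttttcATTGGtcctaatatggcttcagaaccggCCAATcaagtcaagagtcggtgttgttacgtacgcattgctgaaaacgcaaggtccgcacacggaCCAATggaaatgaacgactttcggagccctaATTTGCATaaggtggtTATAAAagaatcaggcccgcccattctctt
H4C11: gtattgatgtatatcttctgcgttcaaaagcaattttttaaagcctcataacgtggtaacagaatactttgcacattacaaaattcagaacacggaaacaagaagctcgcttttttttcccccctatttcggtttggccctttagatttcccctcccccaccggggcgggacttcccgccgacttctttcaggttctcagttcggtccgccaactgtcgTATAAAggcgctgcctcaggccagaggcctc
These stretches lie at chr6:26123922-26124171, plus strand for H2AC6, chr6:27146859-27147108, minus strand for H2BC12, chr1:149886683-149886932, minus strand for H2BC21 and chr6:27823842-27824091, plus strand for H4C11.

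H2BC12 and H2BC21 share an octamer that begins 46 bases before the start, followed by a TATAAA that begins 27 bases before the start in H2BC12 and 30 bases before it in H2BC21. The octamer of H2AC6 is on the other strand and begins 130 bases before the start. The H4C11 stretch held 1 TATAAA, 0 octamers and 0 CCAAT boxes. RefSeq promoters were at hand for 43 of the 50 genes. The octamer, which the factor POU2F1 is known to bind in H2B promoters, was present in 16 of these 43, or 37.2%, against 1.66% of all 27305 promoters of the same length. It was in 6 of 8 H2A and 10 of 13 H2B promoters and in 0 of the H1, H3 and H4 promoters. CCAAT was in 86% of the histone promoters and 33% of all promoters, and TATAAA in 65.1% and 11.1%. By class, CCAAT was in 2 of 7 H4 promoters (28.6%), 88.9% of H1 promoters and 100% of H2A, H2B and H3 promoters. AAACACA, an element known from H1 promoters, was in 7 of 9 H1 promoters, 0 of the other histone promoters and 4.95% of all promoters. These are matches of letters, and binding was not measured.

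Most histone probe sets gave little signal in either line. Values are log2 levels made with RMA, a method that corrects the background, normalizes between arrays and sums up the probes of a set, so 1 unit is a doubling. The median of an array lay between 3.71 and 3.85. Of the 58 histone probe sets, 45 stayed under a level of 5 in every group, with group means of 2.86 to 4.85, and 33 lay below the median of all probe sets. Only 13 (22.41%), for 12 genes, reached a group mean of 5, against 35.99% of all probe sets tested. These 13 comprised 2 of 14 for H1, 3 of 11 for H2A, 7 of 15 for H2B, 0 of 8 for H3 and 1 of 10 for H4. Of the 13, 10 have names ending in _x_at or _s_at, among them those of H2AC6, H2BC21, H2BC5 and H4C11. Their signal may come in part from other family members. Of the 7 listed genes with known polyadenylated transcripts on the array, 6 reached a level of 5, and of the 43 other genes 6 did.

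**Figure D1:**
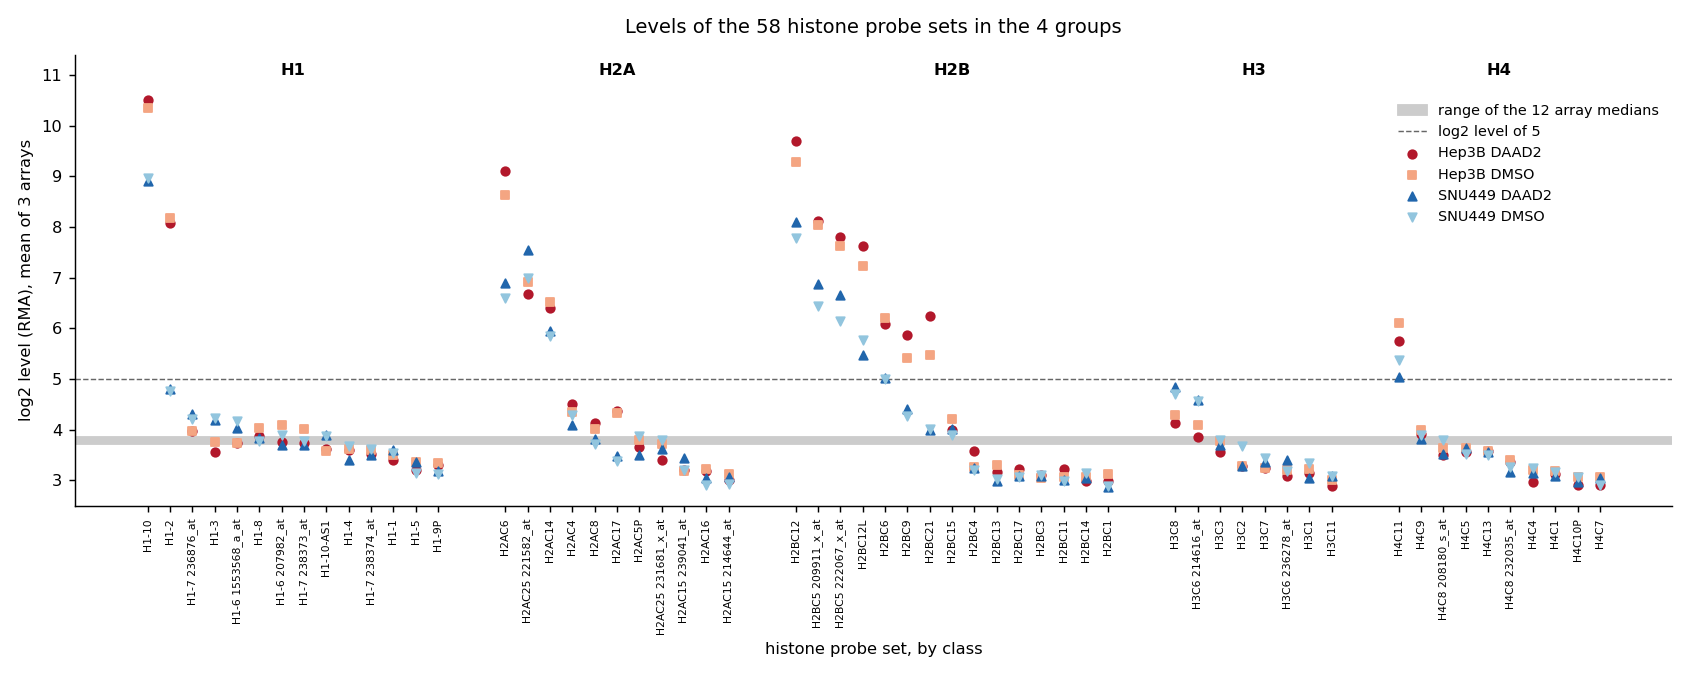
Mean log2 level (RMA, 3 arrays) of each of the 58 histone probe sets in the 4 groups, ordered by class and, within it, by mean level. The grey band is the range of the 12 array medians (3.71 to 3.85) and the dashed line a level of 5, which 13 probe sets reached in at least 1 group. Different probe sets bind their targets differently, so heights can be compared between groups of 1 probe set and not between probe sets.

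Marker genes mostly followed the labels of the lines. All 6 listed hepatocyte genes were called higher in Hep3B controls. Of the 6 listed mesenchymal genes 4 were called lower there, while FN1 and TGFBI, which encode matrix proteins, were called higher, by 0.81 and 1.19. ALB, the albumin gene, averaged 14.53 ± 0.03 in Hep3B and 3.18 ± 0.18 in SNU449 controls, and AXL, a receptor of mesenchymal cells, 3.44 ± 0.46 and 10.96 ± 0.21 (SD, n = 3 each). Of 8 listed leukocyte and fibroblast markers, 3 were called higher and 2 lower in Hep3B controls. PTPRC, which marks leukocytes, stayed between 2.99 and 3.23 in the 4 group means, but LYZ, the lysozyme gene, was at 12.14 in Hep3B and 3.06 in SNU449 controls and CD14, a receptor of monocytes that hepatocytes also make, at 5.37 and 3.32. Between arrays of 1 group, Pearson's r over all probe sets was 0.984 to 0.995. The 3′ minus 5′ signal of the GAPDH control probe sets, a sign of RNA integrity that grows as RNA is degraded, was 0.48, 0.85 and 1.05 log2 units on the Hep3B DAAD2 arrays and 1.51, 0.45 and 0.96 on the Hep3B DMSO arrays. In SNU449 it was 0.69, 1.99 and 0.72 with DAAD2 and 0.97, 0.34 and 0.72 with DMSO. SNU449 DAAD2 array 2 had the highest of these values, and the lowest correlation was between it and array 3 of its group. Without array 2, the calls over all probe sets after DAAD2 in SNU449 were 595 higher and 573 lower, against 570 and 228 with it. In 4 of 4 groups the array with the lowest GAPDH value had the highest median over the 13 histone probe sets at or above a level of 5, taken relative to the DMSO mean of the line. By the same measure of the ACTB control probe sets, the lowest SNU449 DAAD2 array was array 3 (2.52, against 2.64 for array 1). In the other groups the lowest array was the same by both. With the GAPDH measure as a covariate some histone values moved, and its part in them was not tested further.

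In Hep3B, 0 of the 58 histone probe sets were called different after DAAD2 (limma, Benjamini-Hochberg adjusted p under 0.05), as were 0 of all 54613 (0%). At an unadjusted p under 0.05, 4 were higher and 4 lower with DAAD2, which is 6.9% in each direction against 9.53% higher and 5.47% lower among all probe sets. The log2 fold changes ran between -0.35 and 0.78, with a median of -0.07 (all probe sets -0.02), and 19 of 58 were above 0, or 32.8% against 44.9% of all. At readable levels, those higher at an unadjusted p under 0.05 were H2BC21, H2AC6 and H2BC12.

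H2BC21, an H2B gene of the chromosome 1 cluster, had 6.45, 5.98 and 6.33 in Hep3B DAAD2 arrays and 5.88, 5.61 and 4.93 in Hep3B DMSO arrays. All 3 DAAD2 arrays lay above all 3 DMSO arrays, though the lowest DAAD2 and the highest DMSO array were close. The log2 fold change was 0.78 ± 0.23 (SE), with a 95% interval of 0.25 to 1.31 and an adjusted p of 0.18 in limma. Without DMSO array 3, the lowest, the fold change was 0.51. H2BC12, another H2B gene, had 9.84, 9.64 and 9.63 with DAAD2 and 9.22, 9.39 and 9.23 with DMSO. Its groups did not overlap, and the fold change of 0.42 ± 0.10 had the lowest adjusted p of the 58 in this line, 0.126 in limma.

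H2AC6, an H2A gene whose neighbours in the cluster on chromosome 6 include H2BC5, had 9.41, 8.80 and 9.13 in Hep3B DAAD2 arrays and 8.61, 8.73 and 8.54 in Hep3B DMSO arrays. The DAAD2 arrays again lay above the DMSO arrays, with a log2 fold change of 0.49 ± 0.15 and an adjusted p of 0.194 in limma. H4C11 ran the other way, with 5.54, 5.81 and 5.92 with DAAD2 and 5.94, 6.28 and 6.11 with DMSO. Its highest DAAD2 value stayed under its lowest DMSO value, and the log2 fold change was -0.35 ± 0.13 (adjusted p = 0.26, limma). Over the 58 probe sets, 4 had every DAAD2 array above every DMSO array and 5 had every one below, against 11% and 9.99% of all probe sets.

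The other probe sets at a readable level in Hep3B had intervals that included 0. H2BC9 differed by 0.44 (-0.27 to 1.16) and H2BC12L by 0.41 (-0.09 to 0.90), and with 1 array left out these ran between 0.14 and 0.75 and between 0.16 and 0.57. H1-10, the replication-independent linker histone, differed by 0.16 (-0.55 to 0.87), a wide interval set by its DMSO values of 9.49, 10.90 and 10.65. The negative ones were H2AC25 at -0.23 (-0.69 to 0.22), H2BC6 at -0.12, H2AC14 at -0.11 and H1-2 at -0.11, and the sign of the last 3 turned when 1 array was left out. Both probe sets of H2BC5 were slightly above 0, at 0.08 and 0.16. Dim probe sets past the unadjusted threshold were H2BC4 at 0.32, the other probe set of H2AC25 at -0.31 and the germ cell histones H1-6 and H1-7 at -0.34 and -0.29, all under a level of 5 in every group.

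**Figure D2:**
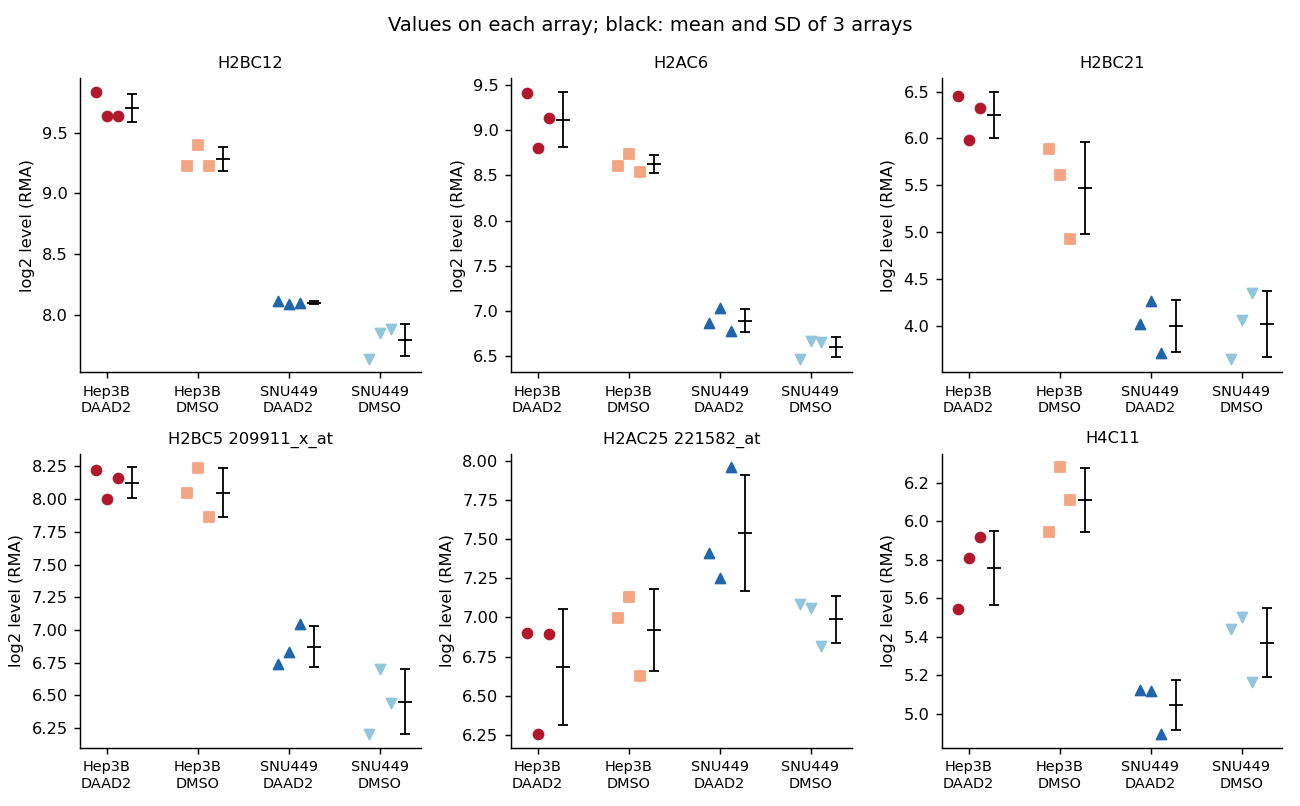
Log2 level (RMA) of 6 histone probe sets on each of the 12 arrays, with the mean and SD of each group in black; the vertical scale differs between panels. H2BC12 and H2AC6 with DAAD2 lay above DMSO in both lines and H4C11 below, H2BC21 lay above in Hep3B, and H2BC5 and H2AC25 lay above in SNU449, none of them past an adjusted p of 0.05.

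In SNU449, 0 of the 58 histone probe sets were called, against 1.46% of all probe sets (1.04% higher and 0.417% lower). At an unadjusted p under 0.05, 5 were higher, for 4 genes, and 3 lower, which is 8.62% and 5.17% against 6% and 5.8% of all. The median log2 fold change was 0.01, as was that of all probe sets, and the values ran between -0.40 and 0.55. The 5 higher ones were H2AC25, both probe sets of H2BC5, H2BC12 and H2AC6.

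H2AC25, an H2A gene of the small chromosome 1 cluster, had 7.41, 7.25 and 7.96 in SNU449 DAAD2 arrays and 7.08, 7.06 and 6.81 in SNU449 DMSO arrays. The groups did not overlap, and the log2 fold change was 0.55 ± 0.18 with an adjusted p of 0.242 in limma. Without DAAD2 array 3, the highest, it was 0.34. The other probe set of H2AC25, which is dim in every group, differed by -0.17 (-0.57 to 0.22), so the 2 did not point the same way. For H2BC5 they did: 1 probe set had 6.74, 6.83 and 7.05 with DAAD2 and 6.21, 6.70 and 6.44 with DMSO, a difference of 0.42 ± 0.15, and the other differed by 0.53 ± 0.19 (adjusted p = 0.29 and 0.281, limma). Without DMSO array 3 the second of these was 0.32. Both are of the _x_at kind and may share signal with other H2B genes.

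H2BC12 had 8.12, 8.09 and 8.10 in SNU449 DAAD2 arrays and 7.64, 7.85 and 7.89 in SNU449 DMSO arrays. The DAAD2 arrays were nearly identical and above the DMSO arrays, with a log2 fold change of 0.31 ± 0.11 (adjusted p = 0.292, limma). H2AC6 had 6.87, 7.03 and 6.78 with DAAD2 and 6.48, 6.67 and 6.67 with DMSO, a difference of 0.29 ± 0.12 whose adjusted p was 0.373 in limma. H4C11 was again on the lower side, with 5.12, 5.12 and 4.89 with DAAD2 and 5.44, 5.50 and 5.17 with DMSO and a log2 fold change of -0.32 ± 0.13 (adjusted p = 0.361, limma). Of the 58 probe sets, 6 had every DAAD2 array above every DMSO array and 4 had every one below, against 8.34% and 7.76% of all.

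For the remaining readable probe sets in SNU449, H1-2 differed by 0.03 (-0.37 to 0.44), H2BC6 by 0.03 (-0.42 to 0.48) and H2AC14 by 0.10 (-0.18 to 0.38). H2BC12L at -0.29 and H1-10 at -0.06 were the lowest after H4C11, and the sign of both turned with the GAPDH measure as a covariate. H2BC21, which was at 4.00 ± 0.28 with DAAD2 and 4.02 ± 0.35 with DMSO in this line (SD, n = 3 each), was too dim for a difference to be read. The H3 genes H3C2 and H3C1, at -0.40 and -0.30, passed the unadjusted threshold at levels below the array median. H1-7, H2AC15 and H2AC25 were the genes whose probe sets differed in direction in at least 1 line.

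**Figure D3:**
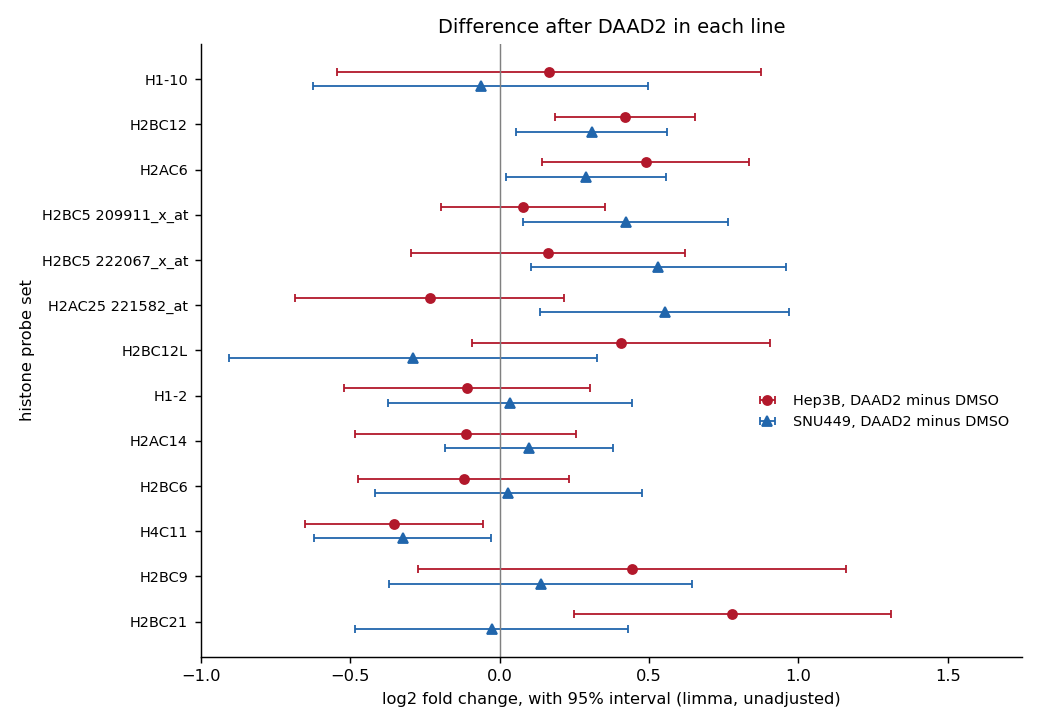
Log2 fold change after DAAD2 with its 95% interval (limma, unadjusted) for the 13 histone probe sets that reached a level of 5, in Hep3B at 2 µM and in SNU449 at 20 µM. H2BC12 and H2AC6 in both lines, H2BC21 in Hep3B, and H2BC5 and H2AC25 in SNU449 had intervals above 0 and H4C11 intervals below 0; none passed an adjusted p of 0.05.

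Set side by side, H2BC12 and H2AC6 were higher and H4C11 was lower at an unadjusted p under 0.05 in both lines. These comparisons used separate arrays, but were chosen from 58 probe sets with results in view. The share of all probe sets that passed in both lines was not counted, so whether this is unusual is not shown. The intervals of the 58 probe sets ran at most between -0.69 and 1.31 in Hep3B and between -0.90 and 0.97 in SNU449, and 50 of 58 included 0 in each line. The median width of an interval was 0.55 in Hep3B and 0.61 in SNU449. A test of the difference between the responses (interaction in limma) called 0 of 58 histone probe sets, against 2.01% of all, and 3 at an unadjusted p under 0.05, against 14% of all. The lowest adjusted p was 0.231, for H2AC25, with a Hep3B minus SNU449 response of -0.79 ± 0.30. Line and dose cannot be told apart in this test.

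Genes of DNA replication, which are active in the same phase of the cell cycle, did differ in SNU449. Of 33 S phase genes on the array, 16 fell with DAAD2 and 0 rose, and the median log2 fold change was -0.72. The median stayed between -0.81 and -0.65 with 1 array left out, but the count of calls did not: it was 0 without DAAD2 array 1, DMSO array 2 or DMSO array 3, 11 without DAAD2 array 3 or DMSO array 1, and 18 without DAAD2 array 2. It was 7 with a replicate block and 25 with all 12 arrays in 1 fit. RRM2, a subunit of ribonucleotide reductase, had 9.28, 9.71 and 9.28 in SNU449 DAAD2 arrays and 10.24, 10.68 and 10.91 in SNU449 DMSO arrays and fell by 1.18 ± 0.19 on the log2 scale (SE, adjusted p = 0.0253, limma). MCM2, a subunit of the replicative helicase, had 7.75, 8.14 and 7.78 with DAAD2 and 8.88, 9.12 and 9.22 with DMSO and fell by 1.18 (adjusted p = 0.0102, limma). With 1 array left out, the adjusted p in limma ran between 0.0226 and 0.119 for RRM2 and between 0.0091 and 0.0692 for MCM2. In Hep3B 0 of the 33 were called, 13 were higher at an unadjusted p under 0.05, and the median was 0.20. The interaction called 22 of 33, all with the higher response in Hep3B, and 15 to 25 with 1 array left out.

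Per array, the medians of the S phase genes relative to the DMSO mean were -0.78, -0.68 and -0.73 in SNU449 DAAD2 arrays and -0.16, 0.08 and 0.11 in SNU449 DMSO arrays. Those of the 13 histone probe sets that reached a level of 5 were 0.27, -0.09 and 0.19 with DAAD2 and -0.13, 0.22 and -0.06 with DMSO. The S phase arrays of the 2 groups did not overlap, while those histone medians did. The 7 histone genes listed for polyadenylated transcripts, 6 of which also reached a level of 5, had medians of 0.29, 0.24 and 0.17 with DAAD2 and -0.15, 0.07 and 0.06 with DMSO, which did not overlap. In Hep3B their medians were 0.25, 0.17 and 0.35 with DAAD2 and -0.02, 0.14 and -0.09 with DMSO, again without overlap. This was not particular to them. The S phase genes in Hep3B had 0.25, 0.25 and 0.10 with DAAD2 and -0.07, 0.02 and 0.04 with DMSO. The lists for histone gene transcription, histone mRNA processing and histone chaperones did not overlap in Hep3B either. The upper quartile of all probe sets was also higher with DAAD2 in Hep3B, at 5.81, 5.89 and 5.79 against 5.71, 5.68 and 5.72 with DMSO. Brighter probe sets as a whole were not set beside the lists. The lists were not tested against each other. In bulk RNA, fewer cells in S phase and less of a transcript per cell cannot be told apart.

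**Figure D4:**
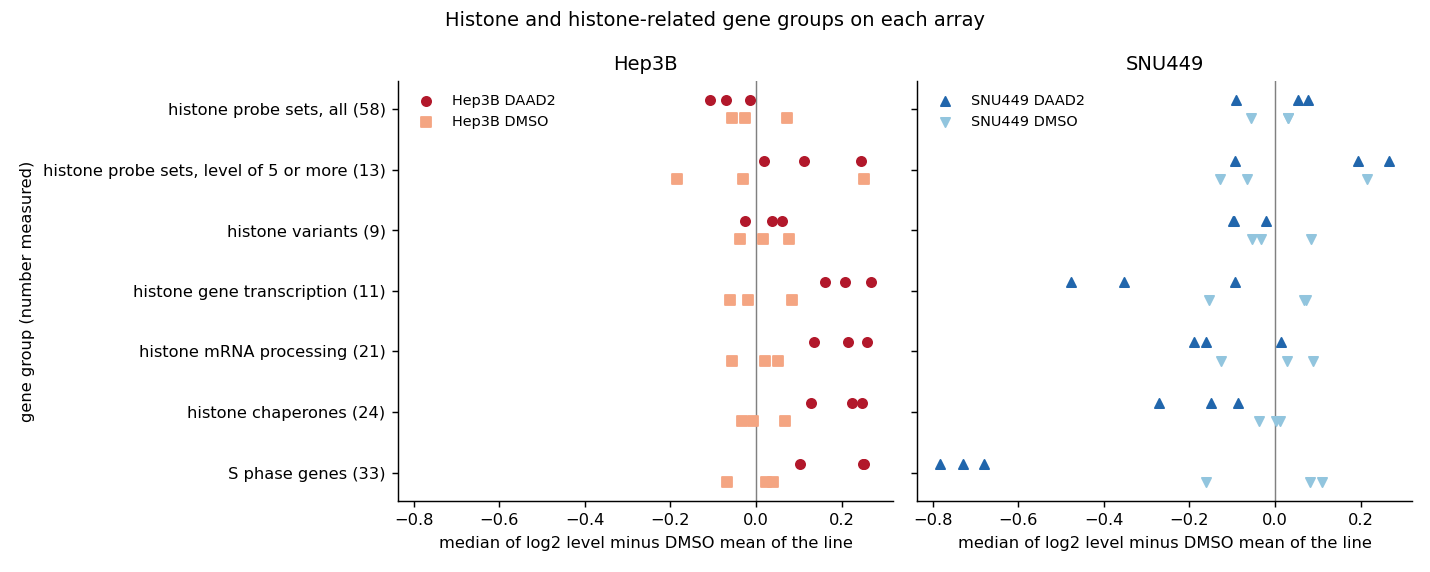
Median log2 level of each gene group on each array, relative to the DMSO mean of the same line, for Hep3B (left) and SNU449 (right); every point is 1 array and the number of probe sets or genes is in brackets. In SNU449 the medians of the S phase genes lay between -0.78 and -0.68 with DAAD2, away from DMSO. The medians over all 58 histone probe sets lay between -0.09 and 0.08 with DAAD2. Of these 58, 45 stayed under a level of 5 in every group, so their median says little about change.

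The factors that drive or process histone transcripts were read from fixed lists. Of 11 transcription factors and cofactors, 2 fell in SNU449, CCNE2 by 1.16 and CCNE1 by 0.73 (adjusted p = 0.00968 and 0.0365, limma), which encode the E cyclins of the S phase entry. With 1 array left out, the adjusted p in limma ran between 0.00664 and 0.0692 for CCNE2, with the call lost without DAAD2 array 1, DMSO array 2 or DMSO array 3, and between 0.0483 and 0.181 for CCNE1, which kept its call only without DAAD2 array 3. NPAT, the coactivator of the locus body, had 6.05, 6.35 and 6.25 in SNU449 DAAD2 arrays and 6.44, 6.78 and 6.96 in SNU449 DMSO arrays, a difference of -0.51 that was not called (adjusted p = 0.191, limma). CASP8AP2, its partner in the same body, differed by -0.03 in SNU449 and 0.30 in Hep3B. Of 21 genes for processing and decay of histone mRNA, 0 were called in either line. SLBP differed by 0.07 (-0.13 to 0.27) in Hep3B and -0.18 (-0.59 to 0.23) in SNU449. Of 24 histone chaperones and assembly factors, 0 were called in either line, and 4 differed between the responses, IPO4, SUPT16H, SSRP1 and ASF1B, with the higher response in Hep3B. That count was 1 to 6 with 1 array left out and 1 with a replicate block.

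Among 9 histone variant genes on the array, which are transcribed outside S phase too and make polyadenylated mRNA, 1 was called. H2AX, the variant phosphorylated at DNA breaks, had 9.22, 9.17 and 9.53 in SNU449 DAAD2 arrays and 10.01, 9.98 and 9.90 in SNU449 DMSO arrays and fell by 0.66 (adjusted p = 0.0442, limma). In Hep3B it differed by 0.02, and the responses differed by 0.68 (adjusted p = 0.037, limma). With 1 array left out, its adjusted p in SNU449 ran between 0.0302 and 0.176 in limma and it kept its call only without DAAD2 array 3. H2AZ1, the transcriptional variant of H2A, differed by -0.53 in SNU449 and 0.05 in Hep3B and was not called (adjusted p = 0.122 and 0.845, limma). H2AJ, another H2A variant, went the other way, by 0.53 in SNU449 and -0.04 in Hep3B, and was not called (adjusted p = 0.169 and 0.916, limma).

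The clearest differences of the histone genes were between the lines themselves. Between Hep3B DMSO and SNU449 DMSO arrays, which are also the controls of the comparisons above, 16 of 58 histone probe sets were called, or 27.6% against 29.3% of all. Of these, 13 were higher in Hep3B (22.4%, against 14.5% of all) and 3 lower (5.17%, against 14.8%). The median difference over the 58 was 0.08 (all probe sets -0.01). The share called was thus close to that of all probe sets, though fewer histone probe sets reached a level of 5 (22.41% against 35.99%). In a fit of only the 19097 probe sets that reached it in at least 1 control group, 6568 were called higher and 6236 lower. Of the 13 histone probe sets called higher, 12 were among those that reached a level of 5 in at least 1 group. Of those 12, H1-2, H2BC9 and H2BC21 reached it in Hep3B only.

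H1-2, a linker histone gene of the main cluster, had the largest difference. Its values were 8.12, 8.53 and 7.92 in Hep3B DMSO arrays and 4.66, 5.09 and 4.53 in SNU449 DMSO arrays, a log2 difference of 3.43 ± 0.19, or 10.8-fold (adjusted p = 1.53e-06, limma). In SNU449 its mean stayed just under 5, so the fold is approximate. H2AC6 had 8.61, 8.73 and 8.54 in Hep3B and 6.48, 6.67 and 6.67 in SNU449, a difference of 2.02 ± 0.10, or 4.06-fold (adjusted p = 8.95e-07, limma). The lines did not overlap in either gene.

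The H2B genes followed at a similar size. H2BC12 had 9.22, 9.39 and 9.23 in Hep3B DMSO arrays and 7.64, 7.85 and 7.89 in SNU449 DMSO arrays, a log2 difference of 1.49 ± 0.11 (adjusted p = 7.95e-06, limma). The 2 probe sets of H2BC5 gave 1.60 and 1.50, and H2BC12L 1.46. H2BC21 and H2BC9 were called higher at 1.45 and 1.15, but were dim in SNU449 DMSO arrays, at 4.02 and 4.27, so these values give a direction and no exact size. H2BC6 differed by 1.21, H1-10 by 1.38, H4C11 by 0.74 and H2AC14 by 0.67. H2AC17, at 0.96, was the 1 called higher that stayed under a level of 5 in both lines.

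H2AC25 was the exception among the readable probe sets. It had 7.00, 7.13 and 6.62 in Hep3B DMSO arrays and 7.08, 7.06 and 6.81 in SNU449 DMSO arrays, which overlapped, and differed by -0.07 (-0.41 to 0.27). The 3 called lower in Hep3B were the H3 genes H3C6 and H3C8 and the germ cell linker histone H1-6, at -0.47, -0.43 and -0.44 (adjusted p = 0.0368, 0.0143 and 0.0356, limma). All 3 were under a level of 5 in both lines, and each lost its call when at least 1 array was left out. H3C6 and H1-6 each have another dim probe set that went the other way, at 0.03 and 0.20. Neither of these was called (adjusted p = 0.912 and 0.214, limma), though that of H1-6 was higher in every Hep3B DMSO array. The direction for these genes is thus open. Of the listed factors, CCNE1 and CASP8AP2 were higher in Hep3B, by 0.92 and 1.01, and CCNE2 and NPAT were lower, at -1.16 and -0.87 (adjusted p = 0.000258, 0.000519, 6.26e-05 and 0.00377, limma). Of the 33 S phase genes, 4 were higher and 15 lower in Hep3B, with a median of -0.35.

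**Figure D5:**
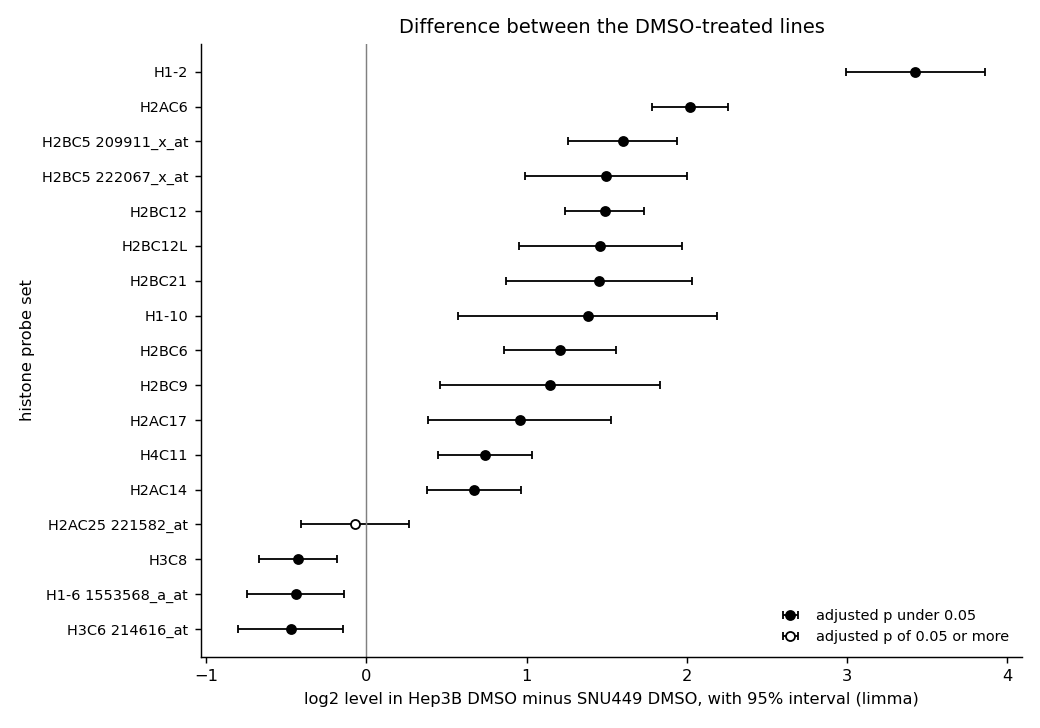
Difference in log2 level between Hep3B DMSO and SNU449 DMSO arrays, with its 95% interval (limma), for the 17 histone probe sets that were called or reached a level of 5. Filled points passed an adjusted p of 0.05: 13 were higher in Hep3B, led by H1-2, and 3 lower, and the open point is H2AC25.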

How the data were processed

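Total RNA of 12 samples was hybridised to Affymetrix Human Genome U133 Plus 2.0 arrays, 3 for each of 4 groups. The deposited log2 values had been made by the authors with RMA (version not given in the sources used here), after raw data had been normalized in BRB Array Tools. Array medians differed slightly, so the columns are not fully quantile-equal. Array data carry no read depth, and 3 arrays a group limit the precision. Groups came from the labels, and 0 columns were left unused.

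The 62 Affymetrix controls were dropped, and the other 54613 probe sets were fitted with limma 3.58.1 (R 4.3.3), two-sided, with Benjamini-Hochberg adjustment over all of them and a call at 0.05. Symbols came from the platform annotation, checked by gene identifier against RefSeq (0 updated); 41091 tested probe sets carried 1 symbol, 1801 several and 11721 none. Each listed gene was represented by its probe set with the highest mean. A level of 5 was the limit for dim probe sets. An exact permutation test of 3 against 3 cannot give a two-sided p under 0.1. Scripts were tested on simulated data. Of simulated log2 changes of 1, 58% were called in the Hep3B comparison, 77% in the SNU449 comparison and 63% in the interaction. Smaller changes, such as those of the histone probe sets after DAAD2, were not simulated.

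The members and lists were chosen with earlier results of these data known. Members were named if called after treatment, among the 5 largest differences in each direction at a level of 5 or more, among the 10 highest levels, among the 5 largest called differences between the control lines in each direction, or if their probe sets disagreed; others were named after their values had been seen. Listed genes were named if called, up to 4 a list, or from a short fixed set. Alternatives were 1 fit over all arrays, a replicate block, no dim probe sets, quantile normalization, median centring, an intensity trend, each array left out and, chosen after seeing the data, a GAPDH covariate.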

Additional observations from a re-analysis of the deposited data

How the results depend on the processing

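Under every alternative run, including each array left out, 0 of the 58 histone probe sets were called after DAAD2 in either line or in the interaction. The counts at an unadjusted p under 0.05 were less stable. In Hep3B the 4 lower ones became 2 with all 12 arrays in 1 fit, 2 after quantile normalization, 2 after median centring and 1 without dim probe sets, and 1 to 4 with 1 array left out. In SNU449 the 5 higher ones became 1 to 5 and the 3 lower ones 1 to 4 with 1 array left out, lowest without DMSO array 3 for the higher (1) and without DMSO array 1 or 2 for the lower (1), and the lower ones became 0 without dim probe sets. H4C11 was still tested in SNU449 without them, but did not pass the unadjusted threshold there. That filter, which by construction tests only brighter members, moved the median log2 fold change of the histone probe sets to 0.16 in Hep3B, 0.19 in SNU449 and 1.45 between the control lines. The median of all probe sets under the same filter was not set beside these values. H1-2, H2BC9 and H2BC21 passed it between the control lines through Hep3B only. With 1 array left out, the Hep3B difference ran between -0.23 and 0.023 for H2BC6, reversed without DMSO array 2, between -0.23 and 0.037 for H2AC14 and between -0.25 and 0.062 for H1-2, both reversed without DAAD2 array 2 or DMSO array 2, and in SNU449 between -0.30 and 0.13 for H1-10, reversed without DAAD2 array 2 or DMSO array 2. With the GAPDH 3′ minus 5′ signal as a covariate, chosen after seeing the data, H2BC12L was 0.054 and H1-10 0.21 in SNU449, both reversed, and the cause was not tested. Between the control lines the 3 called lower became 1 to 3 with 1 array left out (1 without SNU449 DMSO array 1 or 2) and 0 without dim probe sets, and H3C6 also lost its call after median centring (adjusted p = 0.0516, limma); the 13 called higher ranged between 10 and 14.

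Replicate numbers did not pair the arrays: the correlation of same-numbered deviations ran between -0.27 and 0.21. With a replicate block, 0 histone probe sets were called after DAAD2, and the calls over all probe sets in SNU449 were 204 higher and 58 lower, against 570 and 228 without it. With 1 array left out, those calls in SNU449 ran between 93 and 595 higher and between 11 and 573 lower, lowest without DMSO array 3 for the higher and DMSO array 2 for the lower, and in the interaction without SNU449 DAAD2 array 2 they were 1602 and 719, against 661 and 435. Over all probe sets in Hep3B, 0 calls became 123 higher and 31 lower with all 12 arrays in 1 fit, 68 and 9 after median centring, 113 and 24 with an intensity trend, 28 and 7 without dim probe sets, and 2 and 4 after quantile normalization. Under the alternatives that kept every array, the Hep3B difference ran between 0.30 and 0.47 for H2BC12 and between 0.34 and 0.54 for H2AC6. Precision is limited by 3 arrays a group and, for 45 of 58 probe sets, by signals near the array median.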

Other observations

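A further 20 probe sets were annotated to several genes of which at least 1 had a histone cluster name, and were left out above because no single gene can be named for them. Of these, 6 reached a level of 5. None was called after DAAD2 in either line (0 of 20 in limma, with 1 higher and 1 lower at an unadjusted p under 0.05 in each line). A probe set annotated to 14 H4 genes was by far the brightest of them, with group means of 12.31 in Hep3B DAAD2, 12.37 in Hep3B DMSO, 11.79 in SNU449 DAAD2 and 12.18 in SNU449 DMSO. Its log2 fold change was -0.06 in Hep3B and -0.39 in SNU449 (adjusted p = 0.30, limma, unadjusted 0.0233). It differed by 0.19 between the control lines, Hep3B minus SNU449, and was not called there. A probe set annotated to H2AC18 and H2AC19 had 9.53 in Hep3B DAAD2, 9.38 in Hep3B DMSO, 7.07 in SNU449 DAAD2 and 7.13 in SNU449 DMSO. It was higher in Hep3B controls by 2.26 (adjusted p = 4.26e-05, limma), as were 5 others of the 20, with 0 called lower and a median difference of 0.23 over the 20.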
